A study of Mus musculus with 4 samples.

Results

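ATAC-seq peaks were examined in and within 50 kb of 9 genes of fat cell formation in mouse knee chondrocytes. The genes were Pparg, Cebpa, Cebpb, Cebpd, Ebf1, Ebf2, Fabp4, Adipoq and Lpl, and every peak overlapping one of these windows was taken, whatever its height. The windows held 486 of 450430 peaks of the 4 libraries, and these merged into 173 of 170558 sites, a site being a run of peaks that overlap by at least 1 bp. ATAC-seq uses the Tn5 transposase, which cuts and tags open chromatin, so that a peak marks a stretch cut more often than its surroundings.

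All libraries came from knee cartilage of C57BL/6 mice of postnatal day 0 to 4, with no genetic change or drug named. Cells were grown in DMEM/F12 medium with 10% fetal bovine serum. P0 cells were primary chondrocytes kept in culture for under 24 h. P8 cells had been replated to passage 8, each time after doubling from 24000 to 48000 cells per cm2, a procedure in which chondrocytes are known to lose their cartilage character. There were 2 libraries of each passage. The peak lists carry no replicate number, so the libraries are called A and B, and nothing in the labels says whether they came from separate litters. The p-values therefore measure the spread between libraries, which may be technical.

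In fat cell formation, C/EBPβ and C/EBPδ are induced early and activate the genes of C/EBPα and of the nuclear receptor PPARγ. PPARγ and C/EBPα then keep each other active and switch on fat cell genes, among them Fabp4 (a fatty acid carrier), Lpl (the lipase that releases fatty acids from lipoproteins) and Adipoq (the hormone adiponectin). EBF1 and EBF2 are factors that act on Pparg and Cebpa, and EBF2 marks precursors of brown and beige fat. In cartilage, several of these genes are known outside fat: C/EBPβ and PPARγ both act in chondrocytes.

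The 6 promoter sequences below are printed because the start sites of the same pathway differed in whether a peak was found at them. The promoter sequences used held start sites of 5 of the 9 genes (8 starts, RefSeq, GRCm38.p6). Each line is the 250 bases upstream of a start on the plus strand, 5′ to 3′, and capitals mark each CpG dinucleotide. The first 4 had a peak in all 4 libraries and the last 2 had none.
Cebpb, chr2:167688665-167688914: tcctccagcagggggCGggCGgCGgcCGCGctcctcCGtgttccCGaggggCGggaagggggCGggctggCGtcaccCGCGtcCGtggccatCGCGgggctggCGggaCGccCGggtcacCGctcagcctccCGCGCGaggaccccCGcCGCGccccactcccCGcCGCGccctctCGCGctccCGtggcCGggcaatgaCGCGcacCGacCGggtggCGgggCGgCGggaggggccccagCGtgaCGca
Cebpa, chr7:35119043-35119292: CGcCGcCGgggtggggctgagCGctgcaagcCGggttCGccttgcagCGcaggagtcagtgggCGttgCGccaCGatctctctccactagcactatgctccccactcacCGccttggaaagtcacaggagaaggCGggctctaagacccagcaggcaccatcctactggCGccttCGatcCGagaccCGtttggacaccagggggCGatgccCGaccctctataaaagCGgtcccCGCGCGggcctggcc
Pparg start 1, chr6:115360894-115361143: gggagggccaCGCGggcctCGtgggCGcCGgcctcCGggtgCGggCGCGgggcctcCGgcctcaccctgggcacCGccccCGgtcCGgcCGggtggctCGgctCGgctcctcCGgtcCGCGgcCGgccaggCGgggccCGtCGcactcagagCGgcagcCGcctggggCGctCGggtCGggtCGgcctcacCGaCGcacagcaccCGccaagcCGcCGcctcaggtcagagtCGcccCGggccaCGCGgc
Pparg start 2, chr6:115362099-115362348: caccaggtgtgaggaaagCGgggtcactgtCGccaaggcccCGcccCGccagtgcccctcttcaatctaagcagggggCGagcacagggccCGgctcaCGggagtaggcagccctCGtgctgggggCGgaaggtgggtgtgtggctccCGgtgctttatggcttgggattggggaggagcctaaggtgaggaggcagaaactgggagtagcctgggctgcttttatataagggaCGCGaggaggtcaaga
Pparg start 3, chr6:115421816-115422065: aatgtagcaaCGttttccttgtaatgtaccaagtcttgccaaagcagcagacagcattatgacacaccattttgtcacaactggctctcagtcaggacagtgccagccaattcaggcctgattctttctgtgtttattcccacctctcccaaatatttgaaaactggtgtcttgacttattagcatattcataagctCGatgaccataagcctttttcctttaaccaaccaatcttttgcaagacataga
Adipoq, chr16:23146286-23146535: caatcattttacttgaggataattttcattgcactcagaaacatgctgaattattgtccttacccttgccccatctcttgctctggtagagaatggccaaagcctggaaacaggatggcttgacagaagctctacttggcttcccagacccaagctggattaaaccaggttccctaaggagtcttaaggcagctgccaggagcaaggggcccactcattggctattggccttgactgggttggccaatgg

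Start 3 of Pparg is that of PPARγ2, the isoform found mainly in fat cells, and starts 1 and 2 serve PPARγ1, which many tissues make. No peak of any library touched the PPARγ2 window, taken from 250 bases before to 50 bases after the start. The nearest site lay 17737 bp away and had a peak in 1 library. At Adipoq, too, no library had a peak at the start, and the nearest site, 4993 bp into the gene, had a peak in P0 library A alone, with a fold enrichment of 7.04.

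The number of CpG dinucleotides in the 300-base windows ran from 50 at Cebpb and 44 at Pparg start 1 to 2 at the PPARγ2 start and 0 at Adipoq. Cebpa held 29 and Pparg start 2 held 13. Of 3841 RefSeq promoters with 0 to 2 CpG dinucleotides, 3.20% had a peak in all 4 libraries and 93.0% had none in any. Of 7151 promoters with 21 to 67 CpG dinucleotides, 87.9% had a peak in all 4. Each of the 6 starts printed above thus had the state most common for its number of CpG dinucleotides. The starts of Ebf1, with 9 and 17 CpG dinucleotides, had no peak in their windows. Of promoters with 6 to 10 CpG dinucleotides 48.2% had none, but of those with 11 to 20 only 10.7%, so that Ebf1 start 2 was in the less common state. Peaks of all 4 libraries stood beside the first Ebf1 start, 127 bp downstream of it and 623 bp upstream.

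**Figure D1:**
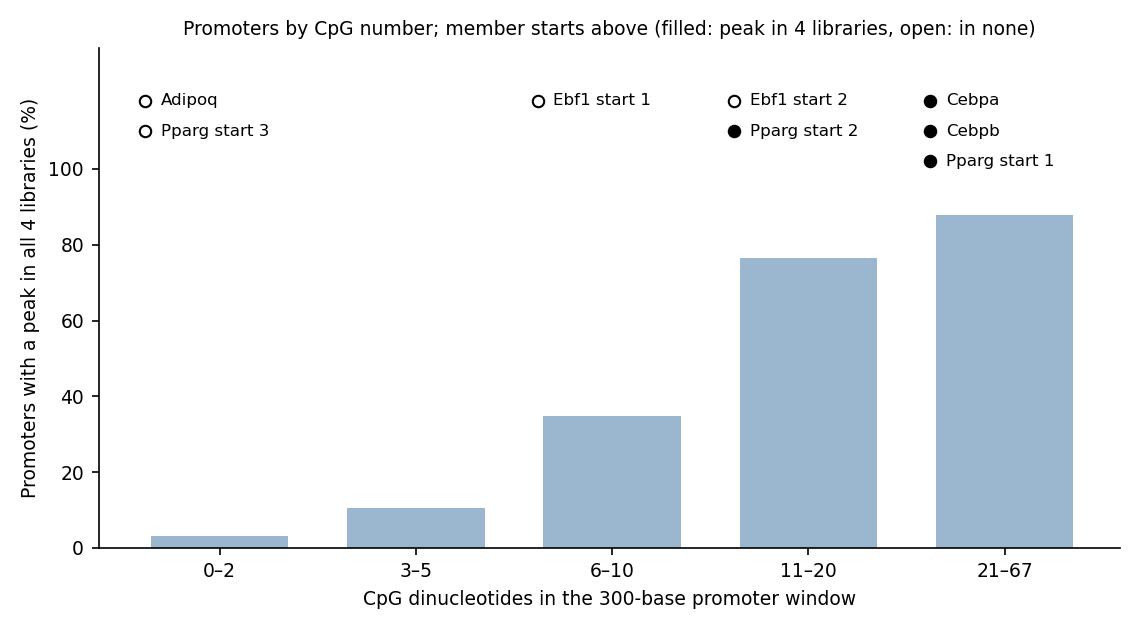
Bars show the percentage of RefSeq promoters with an ATAC peak in all 4 libraries (y axis) by number of CpG dinucleotides in the 300-base window (x axis). Circles above name the 8 starts of the 5 genes, filled where all 4 libraries had a peak and open where none had: the PPARγ2 start (Pparg start 3) and Adipoq stand over the bar of 3.20%, and Cebpa, Cebpb and Pparg start 1 over that of 87.9%.

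Short motifs were searched in the same 300-base windows on both strands. TTNNGNAA, a relaxed form of the palindrome bound by C/EBP factors, was found at 3 of the 8 starts, namely the PPARγ2 start, the first Ebf1 start and Adipoq, and in 37.3% of all 21262 promoters. CCAAT was found at starts 2 and 3 of Pparg and at Adipoq, and in 38.2% of all promoters. TATAAA was found at Cebpa, Cebpb and start 2 of Pparg, and in 12.6% of all promoters. These matches describe letters, and none was tied to a factor.

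At the ends of the genes, taken as 1 kb to either side of each end, 6 of the 9 genes had a peak in every library, as had 58.2% of all 21883 protein-coding genes. These were Pparg, Cebpa, Cebpb, Cebpd, Ebf1 and Lpl. Fold enrichment here is the peak caller's ratio of the pileup of tags at the summit to the local background, each raised by 1. Where a library had several peaks at a site, the highest is given. Depth was read from the lowest local background of each library, which was 1.42 tags for library A and 1.18 for library B of P0. For P8 the backgrounds were 1.02 (library A) and 0.979 (library B), making these the shallower libraries. In bulk libraries such as these, a site that is less open in every cell and a site that is open in fewer cells cannot be told apart.

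At Pparg, the site over start 1 (chr6:115360775-115361617) had fold enrichments of 9.90 (A) and 9.22 (B) at P0 and of 7.94 (A) and 8.16 (B) at P8. From here on, pairs of values are given in the order library A, library B. The deposited values of both P8 libraries lay below those of P0. Library medians over all tested sites were likewise lower, at 6.43 and 7.15 for P8 beside 8.28 and 8.09 for P0. Differences below are therefore given after each library was centred on its median. Centring removes any shift shared by all sites, so a difference is relative to the other tested sites. The paper reports that accessibility fell globally at P8, and centred values cannot show such a fall. On the centred scale this site differed by 0.02 ± 0.17 (log2, P8 minus P0, SE). limma gave an adjusted p of 0.948.

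The Cebpa site over the start (chr7:35118109-35119434, 1326 bp) had 7.50 and 8.51 at P0 and 8.11 and 7.81 at P8. The passages overlapped, and this was also the site with the highest mean in the Cebpa window. At Cebpb (chr2:167688684-167689442) the values were 5.32 and 6.59 at P0 and 5.21 and 4.89 at P8. At Cebpd (chr16:15886649-15888219), the widest site of the 9 windows at 1571 bp, they were 8.12 and 9.69 at P0 and 8.78 and 7.44 at P8. The 3 C/EBP genes thus each had a peak at a gene end in every library of both passages, and none of these sites was called (limma, adjusted p from 0.370 to 0.918).

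At Ebf1, the site upstream of the first start had 9.75 and 9.10 at P0 and 9.72 and 8.38 at P8. The site just downstream (chr11:44618227-44618553) had smaller values, 5.78 and 5.78 for P0 and 4.39 and 5.46 for P8. Its centred difference of 0.03 turned to −0.63, called lower, when summit pileup over the library's median background was used in place of fold enrichment. Ebf2 had only a weak peak at its lower-numbered end, in P0 library B, with 4.65. A strong site with a peak in every library stood 1058 bp inside the gene (chr14:67234350-67234753), with 10.8 and 10.4 at P0 and 8.88 and 11.1 at P8. The RefSeq gene limits give no start or exons for Ebf2, so its position relative to the start is not stated.

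Of the 3 fat cell genes that PPARγ switches on, Lpl alone had gene-end peaks in all 4 libraries. Its site at the lower-numbered end (chr8:68880460-68880917) had 6.49 and 6.33 at P0 and 4.24 and 5.03 at P8. Both P8 values lay below both P0 values, but the centred difference was −0.20 ± 0.17 (SE), which limma did not call (adjusted p = 0.480). On that pileup measure, which takes no account of the background at the site itself, it was −1.15 and called lower. Fabp4 had a narrow site of 216 bp at its higher-numbered end (chr3:10208573-10208788), with 7.04 and 5.49 at P0, 6.06 in P8 library B and no peak in P8 library A, the library with the fewest peaks. Adipoq had no gene-end peak in any library.

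**Figure D2:**
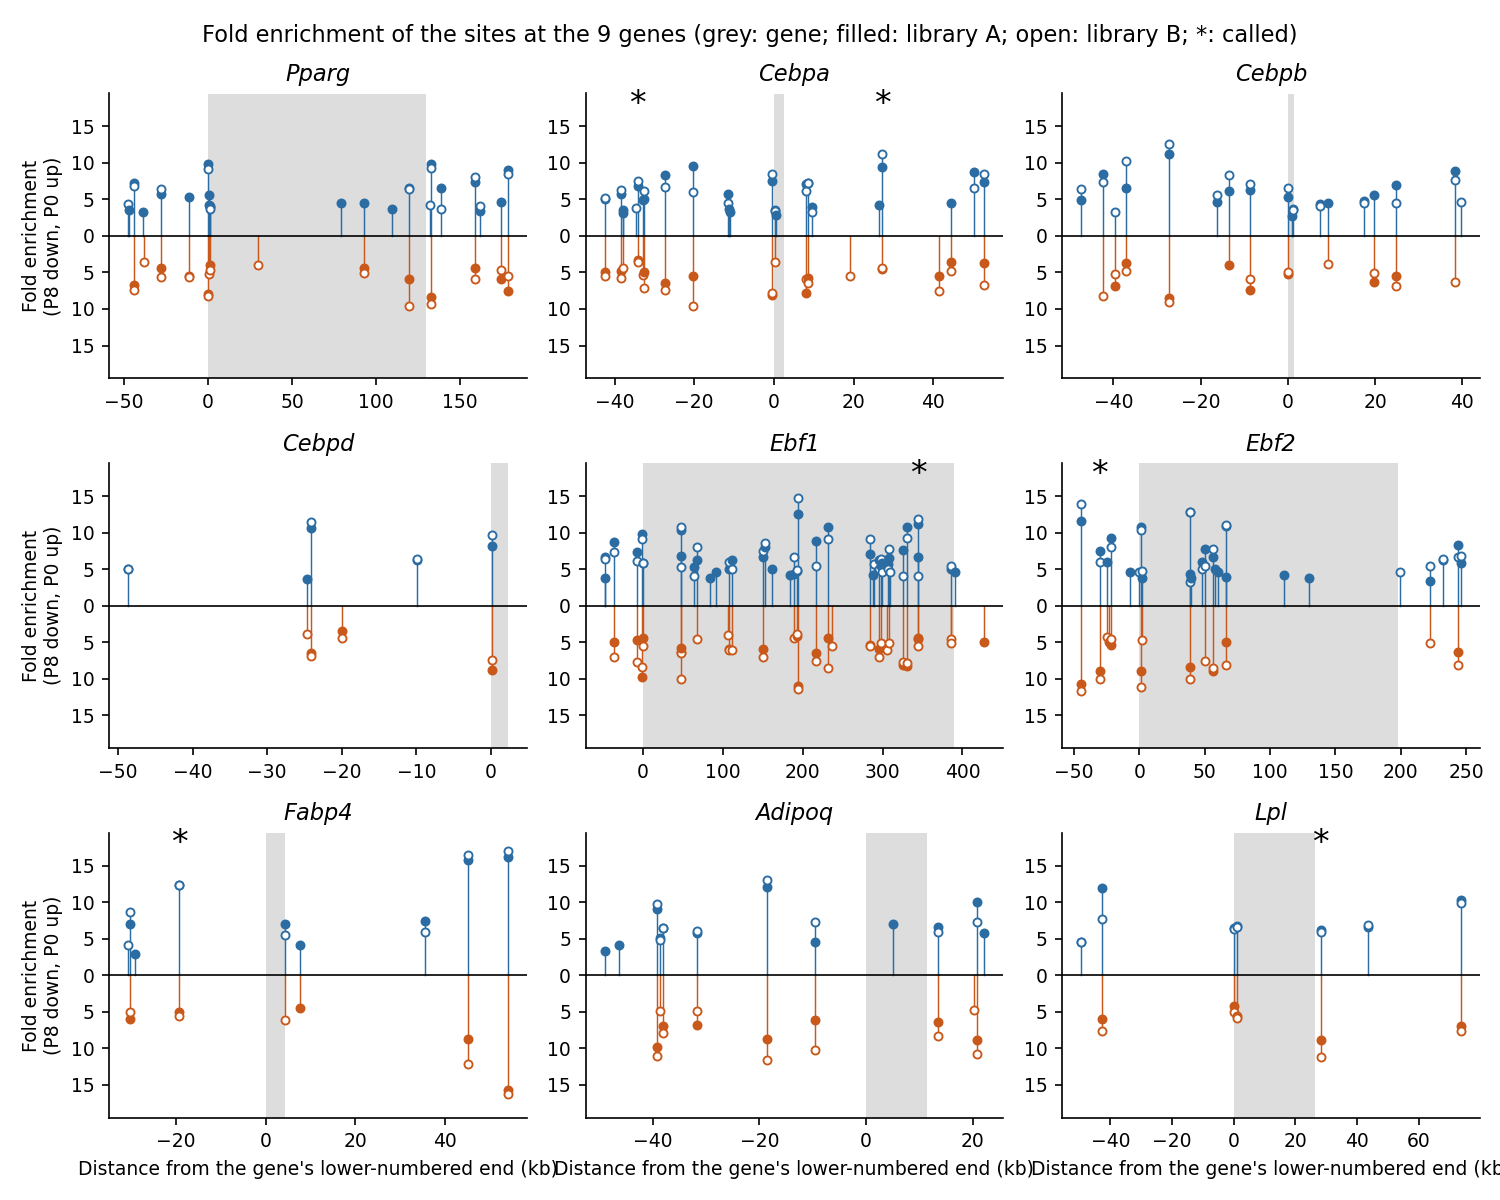
Fold enrichment (y axis, P0 upwards and P8 downwards) of each site of the 9 windows against distance from the gene's lower-numbered end in kb (x axis), with the gene in grey, library A filled and library B open. Asterisks mark the 6 sites called by limma, and all 6 lie away from the shown gene's ends. The gene body of Adipoq holds a single point, that of P0 library A.

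Peaks were counted per gene and library. Cebpa had 23 and 20 peaks at P0 and 13 and 17 at P8, the highest number per 100 kb of the 9 genes (20.9 at P0 and 14.6 at P8). Cebpb had 16 and 15 at P0 and 8 and 10 at P8. Ebf2 had the largest ratio of P0 to P8, 2.05, with 24 and 19 against 9 and 12. Ebf1, the longest gene, had 37 and 32 against 18 and 30. Lpl had 8 and 8 against 6 and 7. In these 5 of the 9 genes (55.6%) both P0 libraries had more peaks than both P8 libraries, which was so for 48.3% of 20361 protein-coding genes with a peak in their window. No gene of the 9 had more in both P8 libraries, as had 3.95% of all genes.

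In the other 4 genes the passages overlapped or were level. Pparg had 19 and 14 peaks at P0 and 13 and 15 at P8, Fabp4 8 and 8 against 8 and 5, and Adipoq 12 and 9 against 9 and 10. Cebpd went the other way, with 5 and 5 against 5 and 9. The 9 peaks of P8 library B fell on 4 sites only, since its peak at the gene end was split into 5. As sites, Cebpd had 5 and 4 at P0 and 3 and 4 at P8.

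Summed over the 9 windows, the libraries had 152 and 130 peaks at P0 and 89 and 115 at P8, with means of 141 ± 15.6 and 102 ± 18.4 (SD, n = 2). Both P0 libraries were higher, and the ratio was 1.38, beside 1.41 for all peaks. The exact two-sided permutation test gave p = 0.333, the smallest that 2 libraries against 2 can give. The windows took 0.105 and 0.109% of the peaks of the P0 libraries and 0.100 and 0.117% of those of the P8 libraries, so as a share of all peaks the passages overlapped. With the same number of top-ranked peaks taken from each library, the windows held 100 and 102 at P0 and 89 and 105 at P8, a ratio of 1.04 (exact p = 1).

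**Figure D3:**
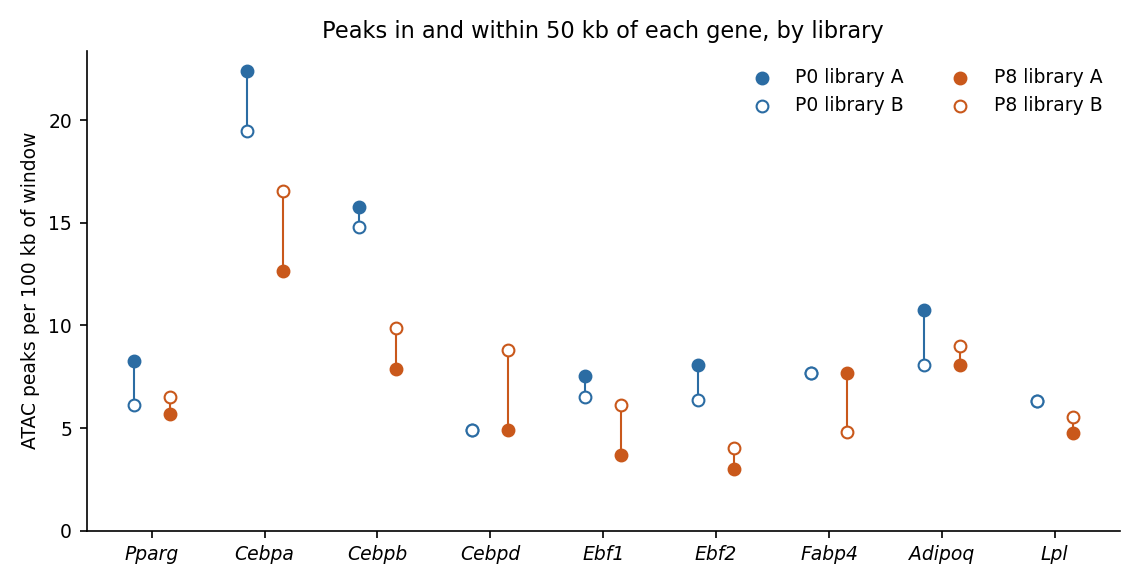
Peaks per 100 kb of window (y axis) for each gene (x axis), with a point for each library and a line joining the 2 libraries of a passage. The P0 points of Cebpa, Cebpb, Ebf1, Ebf2 and Lpl stand above both P8 points, whereas in Cebpd the highest point is P8 library B.

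Among the 173 sites, 67 (38.7%) had a peak in all 4 libraries, compared with 32.4% of all 170558 sites. Another 25 sites (14.5%) were found in both P0 libraries but in no P8 library, as were 17.1% of all sites. There were 2 sites (1.16%) with peaks in both P8 libraries and in no P0 library, against 1.82%. These counts moved with the settings: the 25 became 56 without P0 library B and 40 without P8 library B. The 2 became 16 when peaks had to share 50% of their length, and 7, 3, 11 and 5 when P0 library A, P0 library B, P8 library A or P8 library B was left out. With −log10 q above the median there were 0. A further 52 sites (30.1%, beside 33.0% of all) had a peak in a single library. P0 library A, the deepest, held 31 of these, 17.9% of the 173 sites beside 17.5% of all. A library without a peak may still hold tags below the caller's threshold, so these patterns describe detection. The sites of both P0 libraries only were narrow, with a median width of 216 bp and a median mean fold enrichment of 5.19, compared with 427 bp and 7.07 for sites with a peak in all 4. Sites in a single library had a median width of 109.5 bp and a median fold enrichment of 4.16.

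Of the 25 sites found in both P0 libraries only, Cebpb, Ebf1 and Ebf2 had 5 each, Cebpa 3, Pparg, Cebpd and Lpl 2 each, Fabp4 1 and Adipoq none. The strongest was in Ebf1 (chr11:44771027-44771534, inside the gene), with fold enrichments of 8.04 and 8.54. At Cebpa, a site 47.5 kb past the gene (chr7:35169387-35169754) had 8.70 and 6.50, and one 11.5 kb before it (chr7:35107469-35107818) had 5.80 and 4.58. At Ebf2 the strongest of the 5 stood 34.6 kb past the gene (chr14:67465516-67466083), with 6.21 and 6.41. At Lpl, a site 17.0 kb past the gene (chr8:68923898-68924093) had 6.62 and 6.87. Close to Cebpd, a site 9.83 kb before the gene (chr16:15877242-15877457) had 6.21 and 6.41.

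The naming rule took further sites of this kind. At Pparg they stood 9.20 kb past the gene (6.62 and 3.66) and 32.4 kb past it (3.41 and 4.13). At Cebpb the 3 strongest stood 47.2 kb before the gene (4.97 and 6.41), 16.2 kb before it (4.62 and 5.67) and 15.9 kb past it (4.82 and 4.58). Those before the gene were nearer to Tmem189, at 1519 and 11003 bp from it. The Fabp4 window had such a site 31.3 kb past the gene (7.45 and 5.95), nearer to Fabp12, a gene of the same family. In Ebf1 a further pair had 6.62 and 6.41 (47.5 kb before the gene) and 5.72 and 4.99 (inside it). In Ebf2 a pair more had 5.99 and 5.03 (inside) and 5.82 and 6.77 (47.9 kb past it).

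The 2 sites of both P8 libraries only lay in the windows of C/EBP genes, and both were nearer to another gene. At Cebpa (chr7:35160530-35160870) the site stood 38.6 kb past the gene, with 5.42 and 7.47 in the P8 libraries. It lay 25.2 kb from Slc7a10, an amino acid transporter gene that is the nearest protein-coding gene. At Cebpd (chr16:15867167-15867415) it stood 19.9 kb before the gene, with 3.43 and 4.43, and 3.80 kb from Mzt2.

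The 67 sites with a peak in all 4 libraries were compared in height. limma was fitted to log2 fold enrichment over all 55294 such sites of the genome. It called 3243 sites (5.87%) higher and 1817 (3.29%) lower at P8, with Benjamini-Hochberg adjusted p under 0.05, or 9.15% together. Of the 67 sites in the 9 windows, 2 (2.99%) were called higher and 4 (5.97%) lower. The median difference was 0.09 over the 67 sites, beside 0.07 over all sites, and none of the 9 sites tested at gene ends was called. On summit pileup over the library's median background, 3 of these 9 were called lower, one of Ebf1 and 2 of Lpl, where 14341 of all 55294 sites were. Centring added 0.27 to every difference. Without it the median of all sites was −0.20, and the calls were 498 higher and 5104 lower genome-wide, with 1 higher and 8 lower in the windows.

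Higher at P8 was a site 1.56 kb past the higher-numbered end of Lpl (chr8:68908495-68909005). Fold enrichments of 6.21 and 5.95 at P0 stood beside 8.90 and 11.1 at P8. Every P8 value stood above every P0 value, also as deposited. The centred difference was 0.98 ± 0.17 (log2, SE, adjusted p = 0.00818, limma), and the uncentred one 0.71 (adjusted p = 0.0387).

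The other site higher at P8 stood 29.9 kb before Ebf2 (chr14:67202980-67203399). It had 7.45 and 5.95 at P0 and 8.90 and 10.1 at P8, with no overlap in fold enrichment. The summit pileups did meet, at 17 and 12 tags for P0 and 17 and 19 for P8. The centred difference was 0.78 ± 0.18 (adjusted p = 0.0191), and without centring it was 0.51 and not called (adjusted p = 0.0962). The strongest Ebf2 site, 44.0 kb before the gene (chr14:67188377-67189259), was not called. It had 11.6 and 14.0 at P0 and 10.8 and 11.7 at P8, a centred difference of 0.09 ± 0.18.

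Lower at P8 was a site 19.2 kb before the lower-numbered end of Fabp4 (chr3:10184732-10185167), which lies 847 bp from Pmp2, the gene of a fatty acid carrier of myelin. It had 12.4 and 12.4 at P0 and 4.94 and 5.56 at P8. The centred difference was −0.97 ± 0.17 (adjusted p = 0.00818). On the other side of Fabp4, the site with the highest mean of all 173, 49.3 kb past the gene and inside Fabp12 (chr3:10257937-10258809), had 16.2 and 17.1 at P0 and 15.7 and 16.3 at P8. Its centred difference was 0.21 ± 0.17, which limma did not call.

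Inside Ebf1, a site far from the start (chr11:44962628-44963118) was lower at P8, with 11.2 and 11.9 at P0 and 4.45 and 5.56 at P8. The centred difference was −0.94 ± 0.17 (adjusted p = 0.00947). The strongest Ebf1 site, also inside the gene (chr11:44812326-44812770), had 12.6 and 14.8 at P0 and 11.03 and 11.42 at P8. It differed by −0.01 ± 0.18 after centring. The 17 Ebf1 sites tested ran from −0.94 to 0.77.

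Both remaining calls were in the Cebpa window, one on each side of the gene. The site 24.3 kb past it (chr7:35146199-35146727) had 9.37 and 11.2 at P0 and 4.58 and 4.43 at P8, a centred difference of −0.91 ± 0.18 (adjusted p = 0.0123). The site 34.0 kb before it (chr7:35084875-35085301) had 6.82 and 7.51 at P0 and 3.31 and 3.58 at P8. Its centred difference was −0.78 ± 0.17 (adjusted p = 0.0168, limma). This site lay nearer to other genes than to Cebpa, 27230 bp from Gm45095 and 28.3 kb from Cebpg. At both called sites of the Cebpa window, the deposited P8 values stood below the P0 values with no overlap. The sites called lower held few tags at P8, with summit pileups of 9 and 10 at Fabp4 and 8 and 10 at Ebf1. In the Cebpa window they were 9 and 9 past the gene and 7 and 8 before it. The P8 medians of all peaks in the 9 windows were 12 and 13 tags. At P0 the sites called lower had 23 to 31 tags. The other 9 tested Cebpa sites, the start among them, were not called.

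All 6 calls were lost without P0 library B, in a fit that assumes the lone P0 library to vary as the P8 libraries do. It called 8 sites in the whole genome, 6 higher and 2 lower, with adjusted p from 0.0765 to 0.191 at the 6 sites. The Cebpa site 34.0 kb before the gene was also lost without P0 library A (adjusted p = 0.0533). The directions of all 6 were kept in every fit run.

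**Figure D4:**
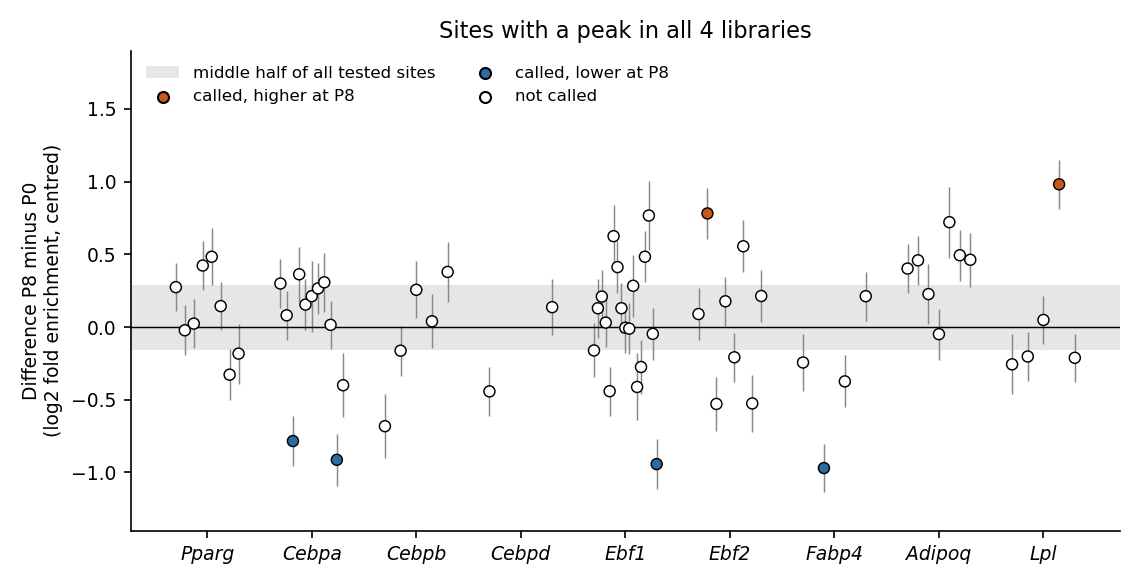
Centred difference in log2 fold enrichment, P8 minus P0 (y axis), of the 67 sites with a peak in all 4 libraries, by gene (x axis) and in order of position, with bars of 1 SE from limma. The grey band from −0.16 to 0.29 holds the central 50% of all 55294 tested sites. The 2 orange points (Ebf2 and Lpl) were called higher and the 4 blue points (Cebpa, Ebf1 and Fabp4) lower at P8.

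Pparg, Cebpb, Cebpd and Adipoq had no site called after centring. The 8 Pparg sites had a median of 0.08 and ran from −0.33 to 0.48. The highest on average stood 2.59 kb past the gene (chr6:115492994-115494077), with 9.89 and 9.28 at P0 and 8.31 and 9.26 at P8. In the Cebpb window the highest site was that at the end of Tmem189 (chr2:167661350-167662078), with 11.2 and 12.6 at P0 and 8.52 and 9.07 at P8. In the Cebpd window it was that at the end of Mzt2 (chr16:15862755-15863609), with 10.6 and 11.5 at P0 and 6.54 and 6.94 at P8. The latter was not called after centring (−0.44 ± 0.17, adjusted p = 0.117) but was without it (−0.71, adjusted p = 0.0304). So was a site of the Cebpb window that lies inside Tmem189, 37.0 kb before Cebpb (chr2:167651687-167651957). It had 6.51 and 10.3 at P0 and 3.71 and 4.81 at P8. limma gave −0.68 centred (adjusted p = 0.0675) and −0.95 uncentred (adjusted p = 0.0406).

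The Adipoq window had the highest median difference of the 9, 0.46 over 7 sites (0.19 without centring). After centring 6 of the 7 were above 0, as were 58.3% of all tested sites, and without it 5 were, beside 26.6% of all. An unadjusted p under 0.05 was given to 5 of the 7 and to 26.1% of all sites, and none of the 7 passed after adjustment (limma, lowest adjusted p = 0.0818). The site with that lowest p, 9.48 kb before the gene (chr16:23136704-23137053), had 4.55 and 7.32 at P0 and 6.10 and 10.2 at P8, and the passages overlapped. It was nearer to Rfc4, at 8974 bp. Of the other sites with an unadjusted p under 0.05, those 39.0 and 37.9 kb before Adipoq lay within 1 kb of an end of Eif4a2. Those 1.82 and 9.14 kb past it were nearest to Adipoq. The strongest Adipoq site, 18.2 kb before the gene, lay at an end of Rfc4, which encodes a replication factor. It had 12.0 and 13.0 at P0 and 8.72 and 11.5 at P8. Sites near a gene need not serve it: 49 of the 173 were nearer to another protein-coding gene, 8 of 13 at Adipoq and 7 of 10 at Fabp4.

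Other genes of the pathway were counted from a list of 38 genes. More peaks in both P0 libraries than in both P8 libraries were found for 24 of them (63.2%), and for none in both P8 libraries. The share was 48.3% over the 20361 genes with a peak in their window, however few. Whether the shares differ was not tested. Summed over the 38 genes there were 741 and 631 peaks at P0 and 452 and 530 at P8. All peaks of the libraries numbered 144356 and 118849 at P0 and 88578 and 98647 at P8. All 5 inhibitors of fat cell formation were among the 24. Dlk1, the preadipocyte factor, had 16 and 12 peaks at P0 and 4 and 7 at P8, and Gata3 had 12 and 10 against 5 and 3. Dlk1 also had a gene-end peak in both P0 libraries (5.35 and 5.43) and in neither P8 library. The same was found for Ebf4 (highest 5.26 and 5.03) and Angptl4 (3.10 and 3.68). Of the 11 upstream factors 7 were among the 24, with Zfp423, a factor of preadipocytes, at 58 and 38 against 20 and 28. Among 14 target and lipid genes 9 were, Plin1 (a coat protein of lipid droplets) not being one, with 13 and 14 against 10 and 18. Of the 5 other C/EBP and EBF genes 2 were among the 24, and of the 3 adipokine genes 1.

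In height, 316 sites in these windows were tested, 6 of them shared with the Cebpa window, and 12 (3.80%) were called higher and 7 (2.22%) lower at P8. Both shares lay below those of all sites, 5.87 and 3.29%, and one of the 7 is the site 34.0 kb before Cebpa given above, which the window of Cebpg shares. The median difference was 0.05. The calls of this list were counted on the centred scale with all 4 libraries, and in no alternative fit. The sites named next are single examples of these calls. Of the sites called higher, one stood 2.33 kb from Ddit3, which encodes a C/EBP protein that hinders the others, with 3.03 and 3.19 at P0 and 4.84 and 5.81 at P8 (1.04 ± 0.17, adjusted p = 0.00756, limma). One inside Ebf4, a relative of Ebf1 and Ebf2, had 8.28 and 6.87 at P0 and 11.4 and 12.6 at P8 (0.94 ± 0.17, adjusted p = 0.00957, limma). Gene-end peaks of Ebf4, in contrast, were found at P0 alone, as given above. Ppargc1a, a coactivator of PPARγ, held one site called higher (4.55 and 3.66 against 6.92 and 6.57) and one called lower (14.9 and 20.6 against 8.90 and 8.59). Prdm16, a determinant of brown fat, had both its called sites lower, among them one with 14.8 and 14.1 at P0 and 5.34 and 8.59 at P8. Klf15 had 3 sites called higher and 1 lower.

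Cell type markers were read from gene-end peaks. Of 8 chondrocyte markers, 8 had one in each P0 library and 7 in each P8 library, Matn1 being the one lacking it. Of 6 fibroblast markers 5 had one in both P0 libraries, 4 and 3 in the P8 libraries, with Pdgfra lacking one in both P8 libraries and Dpt in all 4. Of 7 adipocyte markers, 4 had one in P0 library A, P0 library B and P8 library B and 2 in P8 library A. Adipoq, Cidec and Retn had none in any, and Plin1 had one in every library (9.46 and 10.9 at P0, 8.13 and 8.59 at P8). Over their whole windows the chondrocyte markers summed to 201 and 178 peaks at P0 and 95 and 128 at P8. The adipocyte markers summed to 109 and 93 against 77 and 91, and the fibroblast markers to 76 and 62 against 57 and 59. Macrophage and blood markers had 69 and 47 against 35 and 47, and endothelial markers 36 and 30 against 19 and 29. Muscle markers had 24 and 18 against 9 and 11. For all peaks the ratio of P0 to P8 was 1.41. Of 5 macrophage and blood markers 2 had a gene-end peak at P0 and 1 at P8, with Ptprc, Csf1r and Itgam at none. Of 4 endothelial markers 2 had one in every library, with Pecam1 and Cdh5 at none. Of 3 muscle markers, Myod1 had one in every library, Myog in P0 library A alone and Myf5 in none. An open gene end is not expression, and the part of other cells in the results was not tested.

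The genes most like each member in their peak numbers over the 4 libraries, after removing each gene's own mean on a log2 scale, were sought among 18570 genes. Ets2 matched Cebpa exactly (23, 20, 13 and 17 peaks), Hdhd5 and Krt7 matched Cebpb exactly (16, 15, 8 and 10), and Ube2g2 matched Pparg exactly (19, 14, 13 and 15). For Ebf1 the closest were Iqank1 and Plxnb1, and for Ebf2 Cfap221 and Nlgn3 (16, 13, 6 and 8 each). Fabp4, Adipoq and Lpl each had 7 genes at the same or a smaller difference.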

How the data were processed

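The authors aligned paired-end reads of 50 bp with Bowtie2 to mm10 and called peaks with MACS2 at default parameters in each library, with no versions given in the sources used here. Deposited values per peak are the summit pileup (a signal in tags, not scaled for depth), the ratio called fold enrichment, and −log10 p-values and q-values. A deposited table of the authors' DiffBind comparison holds only their fold changes and p-values and was not used. In the peak lists, columns of values per sample left unused numbered 0.

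Peaks on 21 chromosomes (144356 and 118849 at P0, 88578 and 98647 at P8) were placed on RefSeq gene limits of GRCm38.p6 (21883 protein-coding genes), which carry no strand or exons. Local background was computed from pileup and fold enrichment. limma 3.58.1 (R 4.3.3) was fitted to log2 fold enrichment, with no pseudocount, of the highest peak per library and site, centred on library medians over sites with a peak in all 4 libraries. Such sites are the ones strong enough to be called everywhere, so a site lost at one passage was not tested. No read counts were used, and fold enrichment carries no counting interval. Python 3.11.15, numpy 2.4.6, pandas 2.3.3 and scipy 1.17.1 were used for sites, counts and exact permutation tests. Steps were tested on simulated data.

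Sites named per gene were the one nearest the start (or either end), the one with the highest mean, and up to 3 found at one passage only and up to 3 called by limma. Other sites named were chosen after their values were seen. Among them were the gene-end and inside sites of Ebf1 and Ebf2 beside those above. The rest were the sites of the Adipoq window with low p and the site of the Cebpb window called without centring. The genes, lists and tests were chosen with earlier results of these data known. Alternatives were another scaling, other windows, stricter peaks, matched background, another overlap and leaving out each library.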

Additional observations from a re-analysis of the deposited data

How the results depend on the processing

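No paired analysis was possible because the peak names carry no replicate number. Sites called genome-wide (5060 in all, 3243 higher and 1817 lower at P8) numbered 1980 (888 and 1092) after quantile normalization, 15900 (1559 and 14341) on summit pileup over the median background, 34360 (6084 and 28276) with absent peaks set at each library's lowest fold enrichment, and 498 higher and 5104 lower without centring. Leaving out 1 library gave from 8 to 7422 calls (6 to 4696 higher, 2 to 2726 lower). The 8 came without P0 library B. In the 9 windows the 6 calls (2 higher, 4 lower) became 19 (17 lower) on pileup, 34 (5 and 29) with absent peaks set low, and 1 higher and 8 lower without centring. Leaving out 1 library gave from 0 to 12 calls (0 to 5 higher, 0 to 8 lower). By construction, setting absent peaks low also tests the loss of a peak. The Ebf1 site just after the first start reversed on pileup, from 0.03 to −0.63, and was then called lower. Also called lower on pileup alone were the Lpl site at the gene's lower-numbered end (−1.15), the Lpl site 46.9 kb past the gene (−0.81) and the Cebpb site at Tmem189 (−0.69), and on pileup and without centring the Cebpd site at Mzt2 (−0.88 and −0.71). Sites of one passage only (27, of which 25 P0 and 2 P8) numbered 53 with a reciprocal overlap of 50% (16 at P8). With windows of 0 kb they numbered 8 (8 at P0 and 0 at P8), of 10 kb 12 (12 and 0) and of 100 kb 45 (43 at P0). With −log10 q above the median the P8 sites were 0. Leaving out 1 library, an alternative chosen after seeing the data, gave from 37 to 59 (26 to 56 at P0 and 3 to 11 at P8). The ratio of P0 to P8 peaks in the 9 windows ran from 1.04 to 1.85 over the alternatives, where all peaks had 1.41 in the main setting. The 1.04 came with the same number of peaks per library, and there the passages overlapped. The lowest background limits every count: a peak missing at P8 may be below the threshold of a shallower library. With matched background, keeping only peaks that pass at the lowest background, the sites of one passage only were 25 at P0 and 2 at P8. The ratio of P0 to P8 peaks was then 1.36, beside 1.37 for all peaks.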
